A study of Ovis aries with 6 samples.

Results

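The genes described here belong to 3 signalling families that pattern tissues and act between neighbouring cells of the ovary: the WNT, NOTCH and Hedgehog pathways. They were chosen by symbol, as ligands, receptors, secreted inhibitors, cytoplasmic components and transcription factors of these pathways, and 41 of the 14480 rows of the gene table carried such a symbol: 25 WNT, 9 NOTCH and 7 Hedgehog genes. RefSeq's sheep gene table (assembly ARS-UI_Ramb_v3.0) holds 76 symbols of the same kind, and the other 35, among them NOTCH1, WNT4, LRP5, JAG2, SFRP1 and FZD1, do not appear by symbol among the rows analysed here. TCIM, a small protein that modulates WNT signalling, was put among them with its breed difference already known, so its values are given as a description with no test and it is left out of every count of tested genes below.

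The study compared ovaries of 3 Hu libraries and 3 Mongolian libraries, all from sheep (Ovis aries) during estrus. The series is framed as a contrast of reproductive capacity: Hu ewes are prolific, whereas single lambs are the rule in Mongolian ewes. The label of every library gives ovary as the tissue and polyadenylated RNA as the molecule, with no treatment, age or day of the cycle, and with nothing on whether the 3 libraries of a breed are 3 animals. The p-values below therefore measure only the spread between these libraries. The title of the series speaks of exosomes, and the files do not settle whether the RNA came from whole tissue or from exosomes, so "ovaries" below follows the sample labels only. Expression is in FPKM, which corrects for transcript length and library total, so levels of different genes can be set side by side. The sequencing depth is unknown. Values of a breed are always given in the order of replicates 1, 2 and 3. If the RNA is of whole ovary, fewer cells of a type and less RNA per cell cannot be told apart.

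WNT ligands are secreted lipid-modified proteins that bind Frizzled receptors with an LRP co-receptor. Binding recruits Dishevelled proteins, which stop a complex built on AXIN and APC from degrading beta-catenin, and beta-catenin then works with TCF and LEF factors on target genes such as AXIN2. NOTCH receptors are cut when a JAG or DLL ligand on a neighbouring cell binds them, and the freed piece turns on the HES and HEY repressors. Hedgehog ligands bind the receptor PTCH1 and so release SMO, which activates the GLI factors, and PTCH1, HHIP and GLI1 are themselves targets. In mouse ovaries, granulosa cells send Hedgehog ligands to the theca precursors around the follicle, NOTCH signals pass between oocyte, granulosa cells and vessel walls, and WNT signals take part in ovarian development and follicle growth.

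The Hu libraries stood apart from each other in how much they listed. Of all rows, 44.9%, 55.0% and 92.1% were above 0 FPKM in Hu 1, Hu 2 and Hu 3, against 72.8%, 79.2% and 73.2% in the Mongolian libraries. TBP, a general transcription factor that all cells need, was itself at 0 in Hu 1 although the other 5 libraries had 1.98 FPKM or more, so a 0 is described only as listed at 0. Ovarian stroma markers were abundant in every library, with a summed level of 946 to 1138 FPKM in Hu and 876 to 978 FPKM in Mongolian over 6 of 9 markers listed. Granulosa markers (8 of 12 listed) summed to 57.2 to 270 FPKM in Hu and 71.2 to 128 FPKM in Mongolian. Theca and steroidogenic markers (6 of 7 listed) summed to 16.7 to 87.9 FPKM in Hu and 19.8 to 104.6 FPKM in Mongolian, and epithelial markers (7 of 10 listed) to 0.34 to 12.2 FPKM in Hu and 4.38 to 33.0 FPKM in Mongolian. Oocyte markers were nearly absent: 2 of 11 were listed, ZP3 and GDF9, at 0.50 FPKM at most.

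Among the signalling genes the Hu libraries differed in the same order. Of the 41 genes, 17, 25 and 37 were above 0 in Hu 1, Hu 2 and Hu 3, and 34, 33 and 33 in the Mongolian libraries. These are 41.5%, 61.0% and 90.2% of the genes in Hu and 82.9%, 80.5% and 80.5% in Mongolian. Beside the shares of all rows given above, the share of the signalling genes was larger in Hu 2 and in all 3 Mongolian libraries. It was smaller in Hu 1 and Hu 3. Hu 1 listed 2 of 7 Hedgehog genes and 3 of 9 NOTCH genes, and Hu 3 was the highest Hu library for 29 of the 41. How often Hu 3 was the highest over all rows was not counted, so this is not a trait of these genes. A set of 12 genes was at 0 in Hu 1 and above 0 in all 3 Mongolian libraries: FZD3, SFRP4, DVL2, TCF7, TCF7L1, WNT2B, HES1, HEY2, HEYL, PTCH1, GLI1 and GLI2. That is 29.3% of the 41 genes, against 20.3% of all rows, and 42.9% of the 28 genes tested, against 27.1% of all genes tested. Testing needed 0.5 FPKM in at least 3 libraries, which the 3 Mongolian values alone can meet, as in FZD3, TCF7 and WNT2B. The shares among tested genes therefore lean to this pattern and are a description only. Only 15 genes were above 0 in all 6 libraries.

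**Figure D1:**
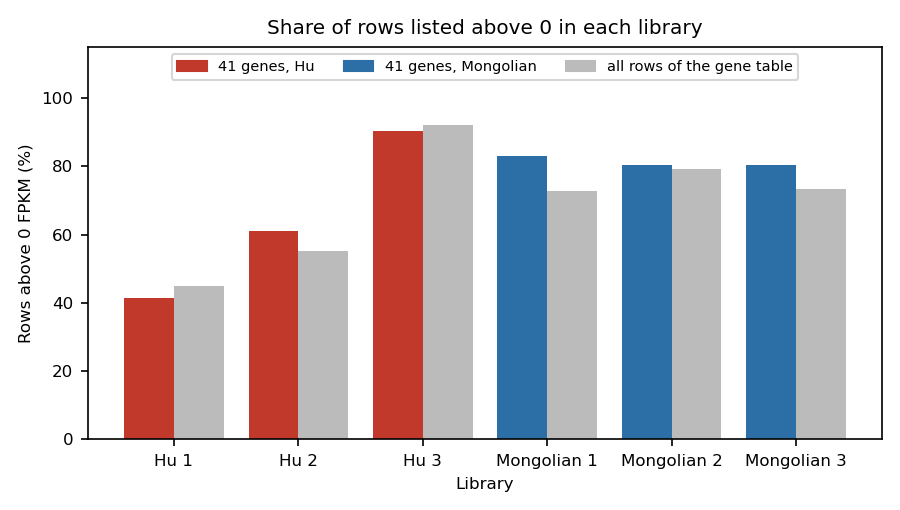
Share of rows above 0 FPKM (vertical axis, percent) in each library, for the 41 signalling genes (red, Hu; blue, Mongolian) and for all rows of the gene table (grey). The share of the 41 genes is 41.5% in Hu 1 and 90.2% in Hu 3, and the grey bars are at 44.9% and 92.1% there.

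Across the 6 libraries the most abundant of these genes were DVL3 with a mean of 19.8 FPKM, SFRP2 with 17.4 and TCIM with 12.2. Next came NOTCH2 with 10.4, TCF7L2 with 9.34, SMO with 7.86 and GLI3 with 6.07. WNT ligands were scarce, with means of 0.12 to 2.42 FPKM over the 5 listed.

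None of the 28 genes tested passed the test between the breeds. Of the 41 genes, 29 had at least 0.5 FPKM in at least 3 libraries, the threshold for testing, and 28 of these remain without TCIM. With limma on log2(FPKM + 1), 0 of the 28 had a Benjamini-Hochberg adjusted p under 0.05 over the 9971 genes tested, against a background of 0% of all genes. The lowest limma adjusted p among the 28 was 0.998. At an unadjusted p under 0.05 there was 1 gene, HEY2, lower in Hu, which is 3.57% of the 28 against 2.82% of all genes tested for that direction, and 0 genes were higher, against 0.913%. In the median gene of the 28, the 95% confidence interval reached 1.53 to each side of the log2 difference. That interval is not adjusted for the number of genes, and a call needs more. HEY2, at a log2 difference of -1.66, was not called, so differences beyond that reach can also be missed with these libraries.

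As a description of the genes that passed the threshold, 23 of the 28 log2 differences (Hu minus Mongolian) were negative and 5 positive, with a median of -0.58. Over all genes tested the median was -0.28, and 32.3% were positive against 17.9% of the 28. The distance between the medians rested on the libraries: without Hu 3 the medians were -0.72 for the 28 genes and -0.66 for all genes, and without both Hu 1 and Hu 3 they were -0.37 and -0.48. The scaling moved both: they were -0.45 and -0.23 after median-of-ratios scaling, -0.41 and -0.10 after quantile normalization, and -0.63 and -0.37 with a common sum per library.

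**Figure D2:**
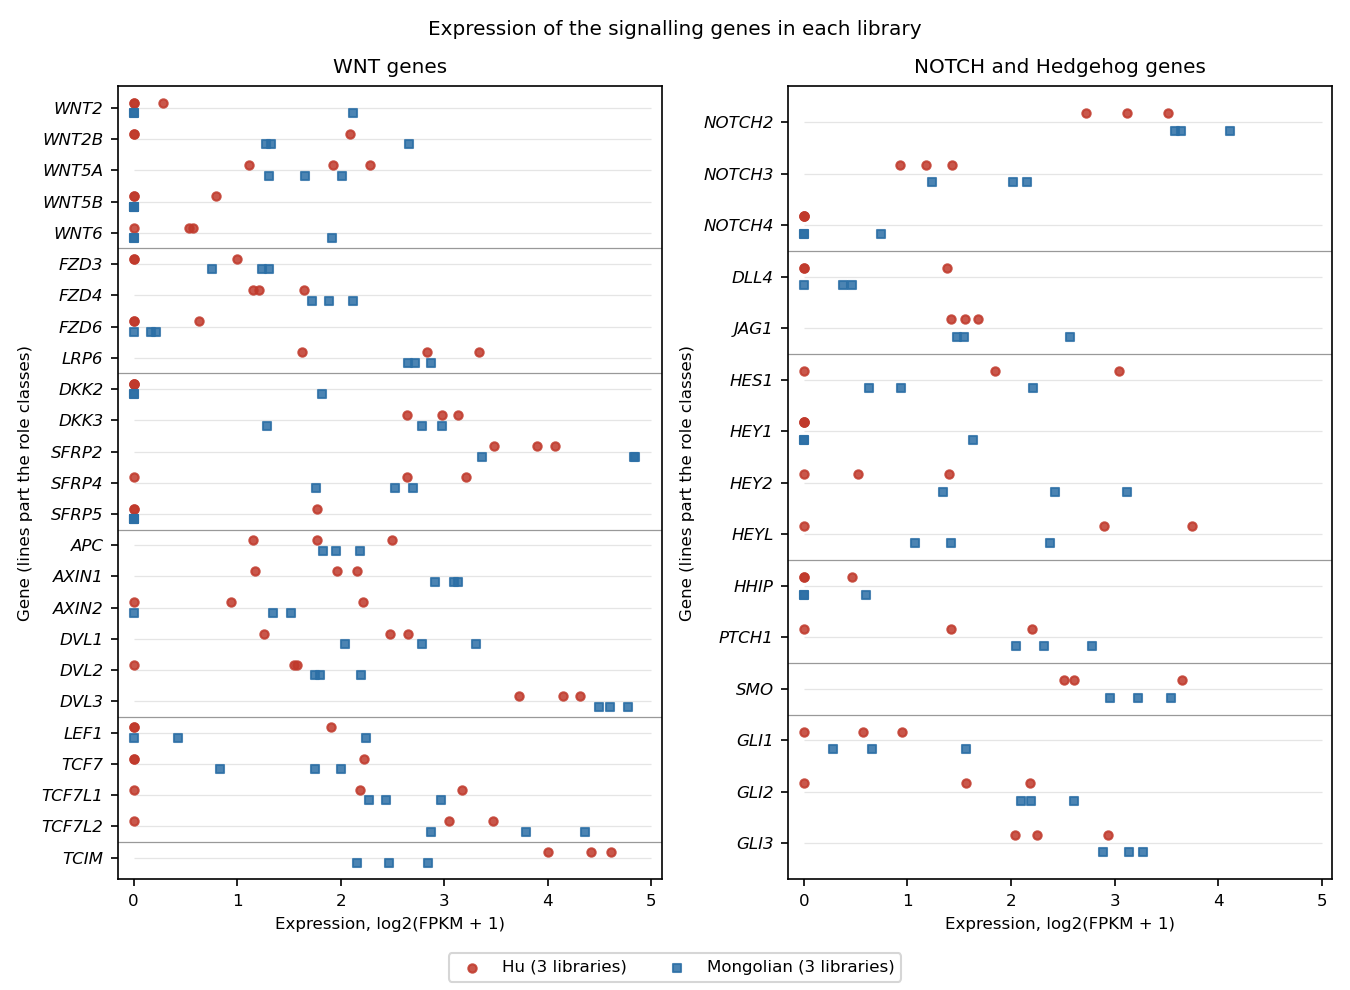
Expression of the signalling genes on a log2(FPKM + 1) axis, with 1 gene not shown and with 1 red circle per Hu library and 1 blue square per Mongolian library; horizontal lines part the role classes. TCIM is the gene whose Hu values all lie above the Mongolian values, and AXIN1, DVL2, DVL3, FZD4 and NOTCH2 are those whose Hu values all lie below.

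In 5 of the 28 genes all 3 Hu values lay below all 3 Mongolian values: AXIN1, DVL2, DVL3 and FZD4 of the WNT pathway and NOTCH2. That is 17.9% of the 28, against 6.05% of all genes tested, and 0 of the 28 lay wholly above, against 1.88%. Which genes these were depended on the scaling between libraries. Median-of-ratios scaling gave 6 (AXIN1, DVL2, FZD3, GLI2, GLI3 and HEY2; 8.22% of all genes), a common sum per library 8 (AXIN1, DVL2, DVL3, FZD3, GLI2, GLI3, HEY2 and SMO; 10.7%) and quantile normalization 4 (AXIN1, DVL3, FZD3 and GLI3; 7.47%). AXIN1 alone was in every one of these counts. How many of all genes tested stayed without overlap under every scaling was not counted, so AXIN1 has no background here. Without Hu 3, 15 of the 28 lay wholly below (53.6%, against 32.0% of all genes), without Mongolian 2, 12 did (42.9%, against 13.6%), and without both Hu 1 and Hu 3, 17 did (60.7%, against 42.6%). Without both, only Hu 2 is left, so 1 Hu value is set against 3 Mongolian values and is easily outside their range. Wholly above lay 1 gene without Hu 1 (HEYL; 3.57%, against 10.2% of all genes), 1 without Hu 3 (DKK3; 3.57%, against 2.40%) and 3 without both (DKK3, HEYL and WNT5A; 10.7%, against 14.6%).

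Among the WNT ligands, WNT5A, which mostly signals without beta-catenin, was the one found in every library, with 1.17, 3.87 and 2.79 FPKM in Hu ovaries, against 2.14, 1.48 and 3.03 FPKM in Mongolian ovaries. The breeds overlapped. WNT2B, a ligand of the beta-catenin branch, had 0, 0 and 3.26 FPKM in the Hu libraries and 5.31, 1.43 and 1.51 FPKM in the Mongolian libraries, which is -1.06 on the log2 scale (standard error 0.77; limma, unadjusted p = 0.191, adjusted p = 0.998). The difference was -1.76 without Hu 3 and -0.61 without Mongolian 1. The single positive Hu library exceeded 2 of the Mongolian ones. WNT2 was listed only in Hu 3 at 0.22 FPKM and in Mongolian 3 at 3.34, and WNT5B only in Hu 3 at 0.74 FPKM. WNT6 had 0.49, 0 and 0.45 FPKM in Hu ovaries, against 2.77, 0 and 0 FPKM in Mongolian ovaries. These 3 ligands were below the threshold for testing.

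The co-receptor gene LRP6 was the leading WNT receptor gene, with 2.08, 6.12 and 9.09 FPKM in the Hu libraries and 6.31, 5.26 and 5.60 FPKM in the Mongolian libraries. Hu spanned a wider range than Mongolian at a similar mean of 5.76 ± 3.52 against 5.72 ± 0.54 FPKM (SD, n = 3 each). FZD4, the Frizzled receptor that also serves Norrin in blood vessels, had 1.22, 2.13 and 1.31 FPKM in Hu ovaries, against 3.35, 2.31 and 2.71 FPKM in Mongolian ovaries. All Hu values were below, but Hu 2 and Mongolian 2 differed little, and the breeds overlapped under each of the 3 other scalings. FZD3, a receptor of the planar polarity branch, had 0, 0 and 0.99 FPKM in Hu and 1.37, 0.70 and 1.48 FPKM in Mongolian. Its log2 difference was -0.77 (standard error 0.55, limma adjusted p = 0.998). FZD6 did not exceed 0.55 FPKM anywhere and was not tested.

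Of the secreted inhibitors, SFRP2 and DKK3 were among the more abundant WNT genes. SFRP2, which binds WNT proteins outside the cell and is made by fibroblasts, had 13.9, 10.2 and 15.8 FPKM in Hu ovaries, against 27.5, 9.28 and 27.6 FPKM in Mongolian ovaries. Mongolian 1 and 3 held the highest values of any of the 41 genes, while Mongolian 2 was below every Hu library. SFRP4 had 0, 5.25 and 8.26 FPKM in the Hu libraries and 4.77, 2.38 and 5.50 FPKM in the Mongolian libraries. DKK3, a divergent member of the Dickkopf family, had 7.79, 6.88 and 5.22 FPKM in Hu ovaries, against 1.44, 5.89 and 6.87 FPKM in Mongolian ovaries, so that Mongolian 1 alone was low. SFRP5 was listed only in Hu 3 at 2.41 FPKM and DKK2 only in Mongolian 3 at 2.52 FPKM, and neither was tested.

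In the cytoplasmic relay, AXIN1, the scaffold of the complex that marks beta-catenin for destruction, was the gene without overlap both as deposited and under each of the 3 other scalings. AXIN1 had 1.25, 2.92 and 3.47 FPKM in the Hu libraries and 7.77, 6.52 and 7.56 FPKM in the Mongolian libraries. The highest Hu value was well under the lowest Mongolian value, and the means were 2.55 ± 1.16 and 7.29 ± 0.67 FPKM (SD, n = 3 each). On the log2 scale AXIN1 differed by -1.28 (standard error 0.66, 95% confidence interval from -2.69 to 0.13; limma, unadjusted p = 0.0714, adjusted p = 0.998), so it did not pass the test. It ranged from -1.48 without Hu 3 to -0.98 without Hu 1, and from -1.35 to -1.03 under the other scalings.

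AXIN2, a sister scaffold and a target of the pathway, overlapped between the breeds, with 0, 0.92 and 3.65 FPKM in Hu ovaries, against 0, 1.54 and 1.87 FPKM in Mongolian ovaries. APC, the partner of AXIN in the same complex, had 1.22, 2.42 and 4.64 FPKM in the Hu libraries and 3.55, 2.57 and 2.88 FPKM in the Mongolian libraries. A share of a class within a library does not change when that library is multiplied by a common factor, though quantile normalization can change it. Such shares were computed from the values as deposited, after these had been seen. AXIN1 made up 50.5%, 46.6% and 29.5% of the summed FPKM of AXIN1, AXIN2 and APC in Hu, against 68.6%, 61.4% and 61.4% in Mongolian. The breeds did not overlap in this share, nor in that of APC in the same class, which was the higher one in Hu. Of 11 shares computed, 4 did not overlap, those of AXIN1 and APC here and of HEYL and HEY2 in their class, and 7 did (NOTCH2, DVL3, GLI3, HES1, SFRP2, TCF7L2 and WNT5A in theirs). None was tested. AXIN1 and APC are parts of the same sum, as are HEYL and HEY2, so the 4 shares are not separate results. Those of HEYL and HEY2 rest on Hu 2 and Hu 3 only, as their class was at 0 in Hu 1. Shares in other gene classes were not computed for comparison.

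DVL3 had the highest mean of the 41 genes and was the main Dishevelled gene, with 12.2, 16.8 and 18.9 FPKM in Hu ovaries, against 26.4, 21.6 and 23.3 FPKM in Mongolian ovaries. Hu values were all lower, with means of 15.9 ± 3.44 and 23.8 ± 2.46 FPKM (SD, n = 3 each), and the breeds overlapped after median-of-ratios scaling. DVL1 had 1.40, 5.27 and 4.57 FPKM in the Hu libraries and 5.90, 3.11 and 8.92 FPKM in the Mongolian libraries. DVL2 had 0, 1.92 and 1.99 FPKM in Hu ovaries, against 2.49, 2.36 and 3.59 FPKM in Mongolian ovaries. DVL3 made up 89.7%, 70.0% and 74.2% of the 3 Dishevelled genes in Hu and 75.9%, 79.8% and 65.1% in Mongolian, so the make-up of the class overlapped.

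Of the transcription factors that beta-catenin joins, TCF7L2 was the most abundant, with 7.28, 0 and 10.1 FPKM in the Hu libraries and 19.5, 6.32 and 12.9 FPKM in the Mongolian libraries. On the log2 scale it differed by -1.50 (standard error 0.84; limma, unadjusted p = 0.0945, adjusted p = 0.998), and the 0 in Hu 2 carried most of it: without Hu 2 it was -0.41. TCF7L1, often a repressor, had 0, 3.57 and 7.99 FPKM in Hu ovaries, against 4.41, 3.85 and 6.82 FPKM in Mongolian ovaries. TCF7 had 0, 0 and 3.68 FPKM in the Hu libraries and 0.79, 2.37 and 3.004 FPKM in the Mongolian libraries. LEF1, below the threshold for testing, had 0, 0 and 2.74 FPKM in Hu ovaries, against 3.75, 0 and 0.35 FPKM in Mongolian ovaries. In all 4 genes Hu 3 was the highest Hu library and lay within the Mongolian range or above it.

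TCIM had 20.4, 14.97 and 23.4 FPKM in the Hu libraries and 6.17, 4.52 and 3.47 FPKM in the Mongolian libraries. Every Hu value was more than any Mongolian one, also in Hu 1, where 24 of the 41 genes were at 0. After median-of-ratios scaling the values were 30.6, 17.5 and 14.7 in Hu and 5.72, 4.50 and 2.91 in Mongolian, again without overlap, as after quantile normalization and with a common sum. As TCIM was chosen for this difference, it is not evidence about the pathway.

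**Figure D3:**
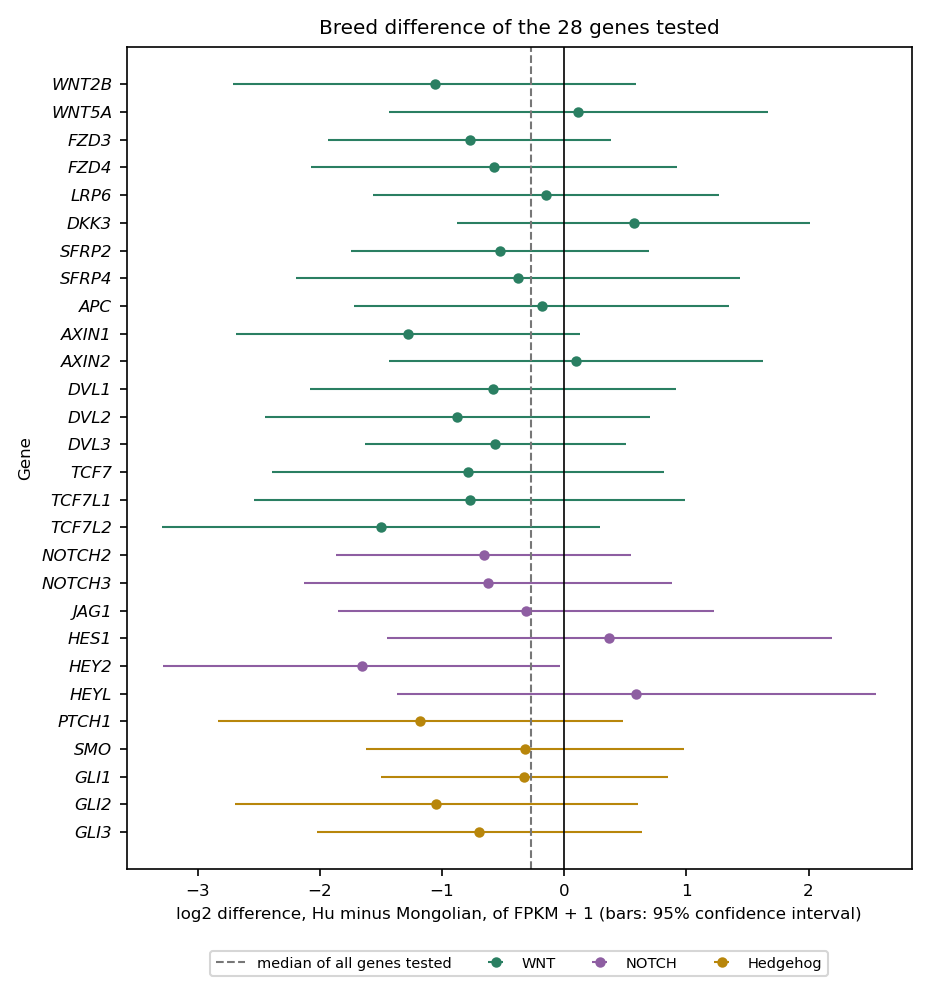
Log2 difference (Hu minus Mongolian, of FPKM + 1) of the 28 genes tested, with 95% confidence intervals from limma; colours mark the pathway, the solid line is 0 and the dashed line the median of all genes tested at -0.28. The interval of HEY2 ends just below 0 and those of the other genes span 0.

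NOTCH2 was the main NOTCH receptor gene of the ovary here, with 5.60, 10.4 and 7.72 FPKM in Hu ovaries, against 11.5, 10.996 and 16.4 FPKM in Mongolian ovaries. All Hu values were lower, the nearest being Hu 2 and Mongolian 2. The means were 7.91 ± 2.41 and 12.9 ± 2.97 FPKM (SD, n = 3 each). The log2 difference was -0.66 with a 95% confidence interval from -1.86 to 0.54 (limma adjusted p = 0.998), and the breeds overlapped under each of the 3 other scalings. NOTCH3, a receptor of mural cells around vessels, had 1.26, 0.90 and 1.70 FPKM in the Hu libraries and 1.36, 3.05 and 3.47 FPKM in the Mongolian libraries (log2 difference -0.63, standard error 0.71; limma adjusted p = 0.998), with -0.22 after quantile normalization. NOTCH4, an endothelial receptor, was listed only in Mongolian 2 at 0.68 FPKM.

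The ligand gene JAG1 was found in every library, with 1.93, 1.69 and 2.20 FPKM in Hu ovaries, against 1.79, 1.92 and 4.93 FPKM in Mongolian ovaries. Apart from Mongolian 3, the libraries lay close together. DLL4, the ligand of sprouting endothelium, had 0, 0 and 1.61 FPKM in the Hu libraries and 0.30, 0.38 and 0 FPKM in the Mongolian libraries and was not tested. Endothelial markers (9 of 10 listed) were also highest in Hu 3, with summed levels of 15.6, 11.02 and 25.4 FPKM in Hu and 7.15, 14.8 and 11.4 FPKM in Mongolian. Of the 9 markers, 4, 5 and 9 were above 0 in the Hu libraries, against 7, 8 and 7 in the Mongolian libraries. Their part in the DLL4 values was not tested.

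Of the NOTCH target genes, HEY2, a repressor known from vessels and heart, had 0, 0.43 and 1.64 FPKM in Hu ovaries, against 7.69, 1.55 and 4.37 FPKM in Mongolian ovaries. Only Hu 3 reached into the Mongolian range. On the log2 scale HEY2 differed by -1.66 (standard error 0.76, 95% confidence interval from -3.28 to -0.03). It had the smallest p of the 28 genes (limma, unadjusted p = 0.0462, adjusted p = 0.998). Its difference ranged from -2.13 without Mongolian 2 to -1.25 without Mongolian 1.

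HEYL, a sister gene of contractile vessel cells, had 0, 6.47 and 12.4 FPKM in the Hu libraries and 1.11, 1.68 and 4.19 FPKM in the Mongolian libraries. Here Hu 2 and Hu 3 were above every Mongolian library and Hu 1 was below them. On the log2 scale HEYL differed by 0.59 (standard error 0.92; limma adjusted p = 0.998), with 1.70 without Hu 1 and -0.17 without Hu 3. HES1 had 0, 2.60 and 7.24 FPKM in Hu ovaries, against 0.92, 0.55 and 3.63 FPKM in Mongolian ovaries, and HEY1 was listed only in Mongolian 1 at 2.10 FPKM. Smooth muscle and pericyte markers (8 of 8 listed) summed to 560, 672 and 1410 FPKM in Hu and to 879, 698 and 842 FPKM in Mongolian. Of these 8 markers, 4 had a positive and 4 a negative log2 difference. Their part in the HEYL and NOTCH3 values was not tested.

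The make-up of the HES and HEY class, computed after the values had been seen, needs no scaling between libraries. HEYL made up 68.0% and 58.3% of the class in Hu 2 and Hu 3, against 9.36%, 44.5% and 34.4% in Mongolian. HEY2 made up 4.57% and 7.68% in Hu 2 and Hu 3, against 65.1%, 40.9% and 35.9% in Mongolian. In Hu 1 all 4 genes were listed at 0, so the contrast rests on 2 Hu libraries, and it was not tested.

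**Figure D4:**
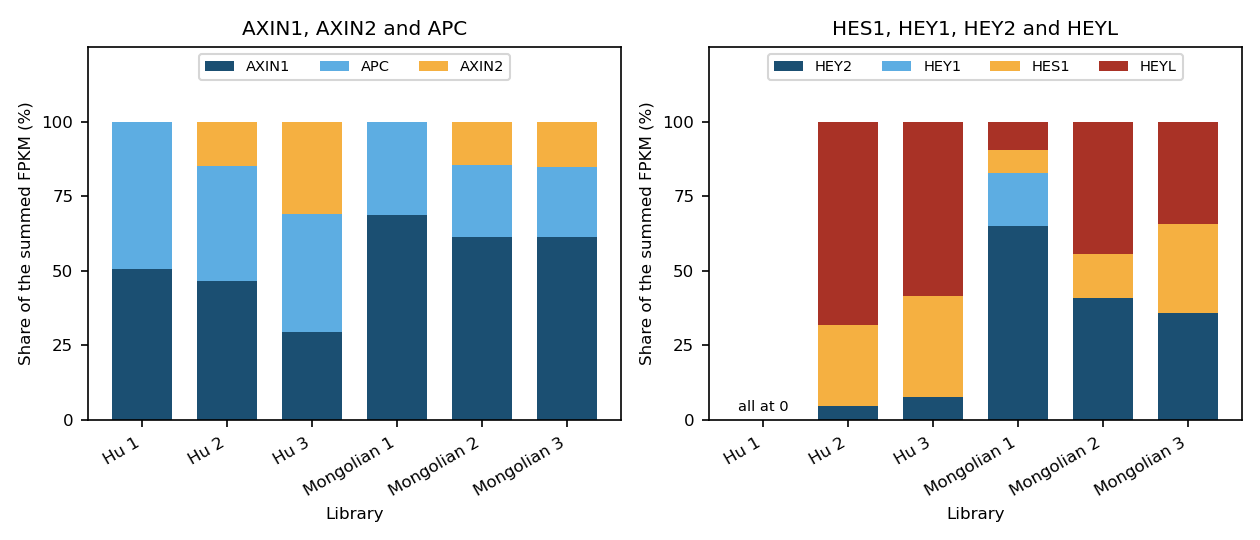
Make-up of the 2 classes with shares that do not overlap between the breeds, in each library as shares of their summed FPKM (vertical axis, percent): AXIN1, APC and AXIN2 on the left, HEY2, HEY1, HES1 and HEYL on the right. AXIN1 holds at most 50.5% in Hu and at least 61.4% in Mongolian, and HEY2 holds 7.68% or less in the Hu libraries that list the class and 35.9% or more in Mongolian.

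Among the Hedgehog genes, PTCH1, the receptor and a target of the pathway, had 0, 3.597 and 1.67 FPKM in Hu ovaries, against 3.99, 3.13 and 5.89 FPKM in Mongolian ovaries. Hu 2 lay within the Mongolian range. The log2 difference was -1.18 (standard error 0.78; limma adjusted p = 0.998), and -0.57 without Hu 1. HHIP, which traps the ligand, was listed only in Hu 3 at 0.38 FPKM and in Mongolian 2 at 0.51 FPKM, and was not tested. SMO, the signal transducer that PTCH1 holds in check, had 5.09, 4.70 and 11.5 FPKM in the Hu libraries and 8.39, 10.7 and 6.79 FPKM in the Mongolian libraries, so that the lowest and the highest library were both Hu.

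GLI3, mainly a repressor when the pathway is off, was the leading GLI gene, with 3.11, 3.76 and 6.65 FPKM in Hu ovaries, against 7.82, 6.42 and 8.67 FPKM in Mongolian ovaries. As deposited, only Hu 3 reached the Mongolian range, and under the 3 other scalings no Hu library did. The log2 difference was -0.69 with a 95% confidence interval from -2.02 to 0.63 (limma adjusted p = 0.998). GLI2, the main activator, had 0, 1.96 and 3.54 FPKM in the Hu libraries and 5.08, 3.56 and 3.27 FPKM in the Mongolian libraries (log2 difference -1.05, standard error 0.78; limma adjusted p = 0.998), with -0.42 without Hu 1. GLI1, a target gene and activator, was scarce with 0, 0.93 and 0.49 FPKM in Hu ovaries, against 1.97, 0.22 and 0.57 FPKM in Mongolian ovaries (log2 difference -0.33, standard error 0.55; limma adjusted p = 0.998), and its sign turned to 0.04 without Mongolian 1.

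Further genes of the pathways did not pass the same test either. Of 47 other WNT pathway genes (beta-catenin, kinases, R-spondins and their receptors, planar polarity genes) 27 were tested, and 0 had a limma adjusted p under 0.05, with 0 at an unadjusted p under 0.05. Their median log2 difference was -0.41. BCL9L, a coactivator of beta-catenin, had 9.07, 5.99 and 4.52 FPKM in the Hu libraries and 14.7, 8.64 and 18.6 FPKM in the Mongolian libraries, overlapping in Hu 1. PYGO1, a partner of BCL9 proteins, had 0, 0 and 2.24 FPKM in Hu ovaries, against 2.28, 1.23 and 3.11 FPKM in Mongolian ovaries.

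Of 39 other NOTCH pathway genes 25 were tested with 0 calls by limma, and 1 had an unadjusted p under 0.05, against 0.913% of all genes for that direction. That gene was PSENEN, a subunit of the gamma-secretase that cuts NOTCH receptors, listed with 0, 7.24 and 7.68 FPKM in the Hu libraries and 0, 0.60 and 0 FPKM in the Mongolian libraries (log2 difference 1.83, standard error 0.83; limma, unadjusted p = 0.0426, adjusted p = 0.998). Hu 2 and Hu 3 were high and Hu 1 was at 0. DTX4, a ubiquitin ligase of the pathway, had 0, 0 and 3.16 FPKM in Hu ovaries, against 2.85, 2.83 and 4.55 FPKM in Mongolian ovaries. Their median log2 difference was -0.46.

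Of 31 other Hedgehog pathway genes 22 were tested with 0 calls by limma and 0 at an unadjusted p under 0.05, and their median log2 difference was -0.25. SUFU, which holds GLI proteins inactive, had 0, 0 and 10.9 FPKM in the Hu libraries and 12.8, 2.46 and 10.9 FPKM in the Mongolian libraries. STK36, a kinase linked to GLI activity, had 0, 0 and 0.69 FPKM in Hu ovaries, against 1.58, 0.66 and 1.26 FPKM in Mongolian ovaries. In both, Hu 3 lay within the Mongolian range while Hu 1 and Hu 2 were listed at 0.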

How the data were processed

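The values analysed are FPKM of genes as deposited by the authors, with 1 column for each of the 6 libraries. The aligner, counter, genome build and filters were not given in the sources used here. Per the labels' protocols, libraries were made from 1 μg of total RNA with a SMARTer kit. Columns were matched to samples by the codes in the sample descriptions. The table of lncRNAs was not used here. The values of 2 genes are not reported here.

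Steps of whole reads were looked for in low values (under 2 FPKM): no ratio between a pair of libraries, taken to 0.2%, was shared by more than 0.566% of such genes, so reads could not be recovered and no count model was used. No libraries shared an identical value above 0. The 9971 genes that reached 0.5 FPKM in at least 3 libraries were fitted together on log2(FPKM + 1). The fit used limma 3.58.1 in R 4.3.3 (eBayes with trend, 2-sided, breed as the only factor). A call is a Benjamini-Hochberg adjusted p under 0.05 over all 9971 genes. A log2 difference on this scale understates changes of low genes.

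The genes, the lists and the tests were chosen with earlier results of these data known. Log2 differences are given in the text for the 4 tested genes of each pathway with the smallest p, and values per library for the leading genes of each role, for those above 0 in every library and for those without overlap; 2 genes of each further pathway list are named. Alternatives were other pseudocounts (0.1 and 0.01), filters, scalings, eBayes settings, library weights, a covariate, the replicate block and leaving out libraries. Scaling to a common sum left out the 2 most abundant rows, which hold 53.3% to 79.7% of a library.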

Additional observations from a re-analysis of the deposited data

How the results depend on the processing

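Under 20 other settings, 0 of the 28 genes were called in 19 of them, and 1 was called with limma array weights: TCF7L2, with a log2 difference of -3.23 (limma adjusted p = 0.0161). Those weights put 3.64 on Hu 2, where TCF7L2 is listed at 0, against 0.41 on Hu 1 and 0.25 on Hu 3, and they called 633 of all genes (6.35%). Over all genes tested, limma called 6 without both Hu 1 and Hu 3, and 0 to 4 without 1 library (2 without Hu 2, 4 without Hu 3). The median of the 28 genes relative to that of all genes was -0.30, with 0.0263 under array weights, 0.11 without both Hu 1 and Hu 3, and -0.40 to -0.07 without 1 library; the cause was not tested. Of 224 values of the 12 genes whose log2 difference is given, 218 kept their sign and their side of the threshold. The filters, the eBayes settings and the replicate block leave a log2 difference as it is, so no sign could change there. In most settings limma called 0 of all genes, so the side of the threshold could hardly change either. The count of 218 is therefore no measure of stability. HEYL turned to -0.0546 and -1.10 with pseudocounts of 0.1 and 0.01 and to -0.17 without Hu 3, where leaving out 1 library gave up to 1.70, and GLI1 turned to 0.11 without both Hu 1 and Hu 3 and to 0.0377 without Mongolian 1, where leaving out 1 library gave down to -0.60. Of all 28 genes, 18 kept 1 sign in every setting in which they were tested, and LRP6, APC, AXIN2 and JAG1 changed sign under at least 1 other scaling. Same-numbered libraries did not deviate together (correlations across genes of -0.01, -0.03 and -0.18). Pairs with different numbers gave -0.11 to 0.16. With 3 libraries per breed these values cannot show whether the numbers pair libraries. Under the replicate block limma called 0 of the 28 and 0 of all genes, with a relative median of -0.30. At an unadjusted p under 0.05, limma found 397 genes with the block, against 372 without it. Genes with zeros depend most on the pseudocount: with 0.01, WNT2B was at -5.04 and FZD3 at -4.61. The threshold left 12 of the 41 genes untested; without it limma tested 40 and called 0. Depth is unknown.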

Other observations

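A few genes outside the naming rule, picked after their values were seen, also had all 3 Hu values below all 3 Mongolian values. In the NOTCH list these were 3 of 25 tested genes (12%, against 6.05% of all genes). Among them, NUMBL, a relative of the NOTCH antagonist NUMB, had 2.37, 2.03 and 2.58 FPKM in Hu ovaries, against 11.9, 4.47 and 4.59 FPKM in Mongolian ovaries. EP300, a general coactivator, had 3.70, 7.07 and 7.18 FPKM in the Hu libraries and 14.2, 8.87 and 13.5 FPKM in the Mongolian libraries. In the Hedgehog list there was 1 of 22 tested genes (4.55%): EVC2, a protein of the ciliary base that relays the SMO signal, with 1.84, 1.14 and 1.42 FPKM in Hu ovaries, against 2.20, 2.08 and 4.87 FPKM in Mongolian ovaries. In the WNT list there were 0 of 27. None of these genes was called by limma.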
